A study of Mus musculus with 16 samples.

Results

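The 10 genes described here are Slc46a2, Ptprz1, Mfge8, Paqr7, Olr1, Zbtb7c, Camsap2, Fam208a, Hspa4l and B4galnt2, out of 57005 genes listed in either of 2 expression tables. They were chosen by their values in whole back skin: in each of them the range of the 5 control libraries and the range of the 5 libraries of GRK2 eKO mice did not overlap, and none is a standard marker of a skin cell lineage. All 10 passed the filter on low values in skin, where 4.18% of the 16589 genes tested had groups that did not overlap. Because the skin values chose the genes, their skin differences are given as a description, without a test. The sorted stem cells took no part in the choice, and the tests of the 10 genes are those in the stem cells.

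The study profiled bulk RNA of C57BL/6 mice. Skin gave 5 libraries of control and 5 of GRK2 eKO mice, aged 8 months. The other 6 libraries came from hair follicle stem cells (HFSC), the bulge cells sorted as CD34-positive and α6-integrin-positive, 3 from control and 3 from GRK2 eKO animals. For the HFSC the sample labels state 18 months, and the design text of the series states 8 months, so their age is not settled here. The labels do not spell out eKO, and the promoter that drives the deletion, the sex and any pooling of animals are not given in the sources used here. All values are read counts divided by 1 size factor per library, called normalised reads, and the tissues were normalised apart from each other. Recovered depth was 11.6 to 14.2 M reads in control skin, 8.21 to 16.4 M in eKO skin, 6.43 to 6.73 M in control HFSC and 6.43 to 9.39 M in eKO HFSC. Grk2 itself, at 1100 to 1492 normalised reads in control and 980 to 1224 in eKO skin, and at 121 to 144 against 104 to 122 in HFSC, had overlapping groups in both tissues, so genotype is as labelled and Grk2 does not tell the libraries apart; which exons are deleted is not given in the sources used here.

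GRK2 phosphorylates activated G-protein-coupled receptors, which ends their coupling to G proteins and brings in arrestins. The 10 genes are not a pathway. Slc46a2 encodes a membrane transporter that takes up fragments of bacterial peptidoglycan, Ptprz1 a receptor phosphatase that binds the growth factor pleiotrophin, Mfge8 a secreted bridge between dying cells and integrins of the cells that engulf them, Paqr7 a membrane progesterone receptor and Olr1 the receptor of oxidised low-density lipoprotein known as LOX-1. Zbtb7c encodes a POZ and zinc finger transcription regulator, Fam208a the TASOR subunit of the HUSH complex that silences repeats, Camsap2 a protein that caps free minus ends of microtubules, Hspa4l a chaperone of the HSP110 family that serves HSP70, and B4galnt2 the enzyme that finishes the Sda blood group glycan.

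In eKO skin 6 of the 10 were higher (Olr1, Paqr7, Mfge8, Zbtb7c, Slc46a2 and Hspa4l) and 4 were lower (B4galnt2, Ptprz1, Camsap2 and Fam208a). In HFSC 8 of the 10 reached the filter and 4 of those 8 passed the test (limma, Benjamini-Hochberg adjusted p under 0.05), each in the direction seen in skin: Zbtb7c and Hspa4l rose, and Camsap2 and Fam208a fell. In that comparison 19.4% of all 13784 genes tested passed, 10.7% higher and 8.74% lower in eKO (1468 and 1205 genes, or 1271 and 1537 when scaled by library size only). The groups of HFSC libraries did not overlap for 5 of the 8 members tested, against 36.3% of all genes tested. Whether a member's difference itself changed between the tissues was not tested, since the skin contrast made the choice.

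Promoter sequence is shown for 3 of the 4 genes that passed in HFSC, as members whose RNA moved the same way in both tissues. The runs are the 250 bases upstream of the start in RefSeq for GRCm38.p6, 5′ to 3′ on the gene's strand, with matches to the motifs below in capitals, from chr3:40745363-40745612 on the plus strand for Hspa4l, chr1:136346105-136346354 on the minus strand for Camsap2 and chr14:27428584-27428833 on the plus strand for Fam208a, which RefSeq names Tasor.
Hspa4l: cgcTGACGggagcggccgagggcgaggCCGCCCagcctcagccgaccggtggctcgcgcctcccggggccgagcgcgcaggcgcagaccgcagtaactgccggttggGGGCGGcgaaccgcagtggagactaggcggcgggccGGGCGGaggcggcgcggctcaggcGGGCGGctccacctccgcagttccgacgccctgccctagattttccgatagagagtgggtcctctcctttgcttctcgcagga
Camsap2: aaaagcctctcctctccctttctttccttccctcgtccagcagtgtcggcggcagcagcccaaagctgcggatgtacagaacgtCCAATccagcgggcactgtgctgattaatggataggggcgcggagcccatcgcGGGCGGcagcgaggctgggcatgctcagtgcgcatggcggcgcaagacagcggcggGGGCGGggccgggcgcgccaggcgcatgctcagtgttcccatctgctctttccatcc
Fam208a: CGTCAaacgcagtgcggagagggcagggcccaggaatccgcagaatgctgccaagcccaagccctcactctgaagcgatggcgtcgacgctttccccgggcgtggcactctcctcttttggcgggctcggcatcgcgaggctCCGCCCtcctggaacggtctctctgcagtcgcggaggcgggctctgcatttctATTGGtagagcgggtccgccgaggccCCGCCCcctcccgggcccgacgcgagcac

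Motifs were searched on both strands of 32851 promoter windows of that length, and 9 of the 10 members had one; Zbtb7c had none. The GC box, GGGCGG, was found in 7 of the 9 members and in 32.7% of all windows. It stands in the promoters of Hspa4l, Camsap2 and Fam208a, and also in those of Ptprz1, Mfge8, Paqr7 and B4galnt2. CCAAT was found in Olr1, Camsap2 and Fam208a, against 33.8% of windows, and TGACG, a core of the cAMP response element, in Fam208a and Hspa4l, against 17.8%. The AP-1 site TGANTCA was found in Olr1 (6.75% of windows), and the heat shock patterns GAANNTTC in Ptprz1 (6.69%) and TTCNNGAA in Mfge8 (7.17%). The heat shock pattern was not among the letters of the Hspa4l window. No member window held TATAAA (12.4% of windows) or the E-box CACGTG (6.02%). These are matches of letters only.

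**Figure D1:**
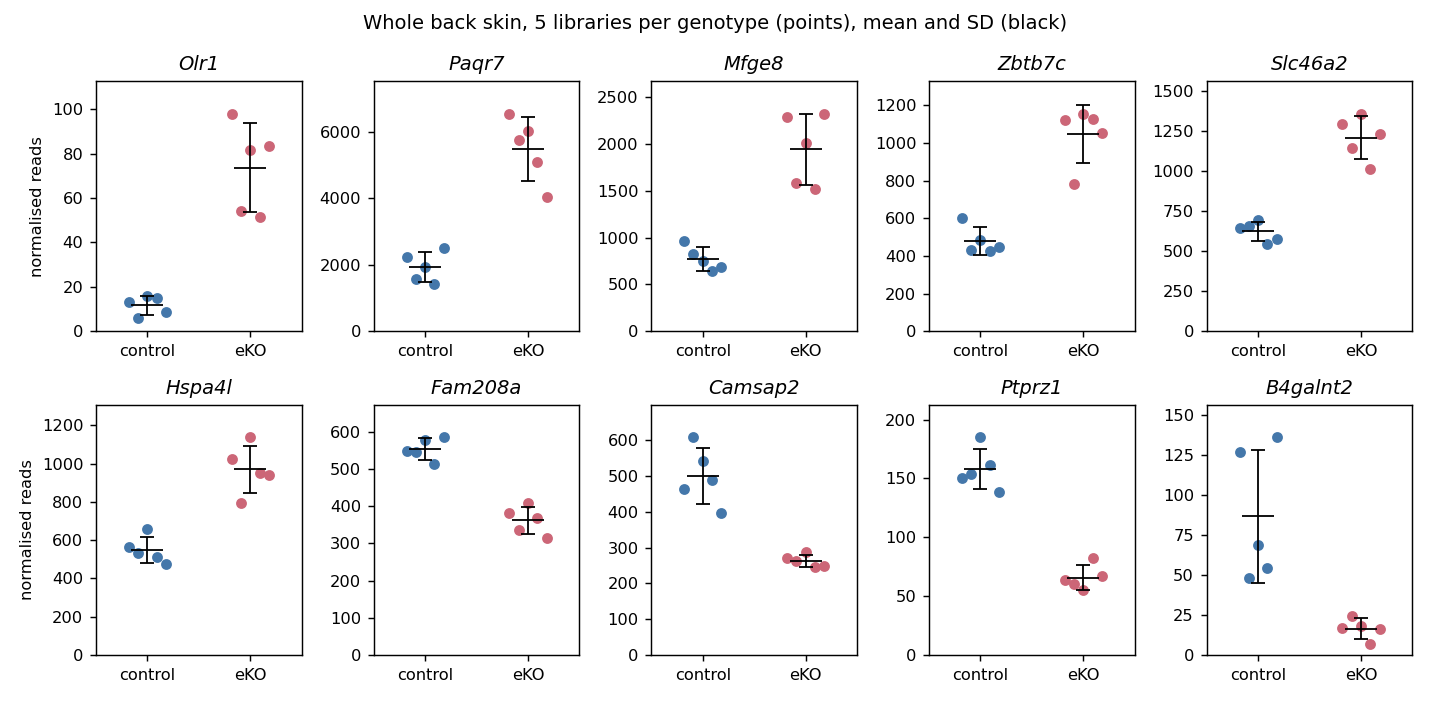
Normalised reads of the 10 genes in each whole skin library (y axis, own linear scale from 0 for each gene) by genotype, with mean and SD of 5 libraries. No control point reaches an eKO point in any panel, which is how the genes were chosen; the panels differ in how far the groups lie apart, most for Olr1 and least for Hspa4l and Fam208a.

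The distance between the groups in skin differed among the 10. The edge ratio, which divides the lowest library of the higher group by the highest library of the lower group, was 3.29 for Olr1 and 1.96 for B4galnt2, between 1.30 and 1.68 for Ptprz1, Paqr7, Mfge8, Slc46a2, Camsap2 and Zbtb7c, and 1.25 and 1.21 for Fam208a and Hspa4l. The member closest to overlap was therefore Hspa4l, with a highest control of 657 and a lowest eKO of 797. The nearest gene outside the rule was sought among named genes whose absolute log2 fold change was at least 0.62, the smallest among the members. It was Gm49484, with 28.2 to 50.4 normalised reads in control and 16.0 to 28.3 in eKO, whose lowest control and highest eKO libraries met.

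Olr1 had the largest ratio. Its control skin libraries held 13.2, 5.90, 15.7, 14.9 and 8.55 normalised reads and its eKO skin libraries 98.0, 54.0, 81.5, 51.5 and 83.4. All eKO libraries lay well above all controls, with means of 11.7 ± 4.25 (SD, n = 5) and 73.7 ± 20.2 (n = 5) and a log2 fold change of 2.59 on the scale of log2(normalised reads + 1). Even so it stayed a rare transcript, at 0.988 RPM (reads scaled to library depth) in control and 6.57 in eKO skin. In HFSC Olr1 had 0 reads in all 6 libraries, which over each group allows up to 0.151 RPM in control and 0.134 in eKO. The skin difference in Olr1 thus has no counterpart detectable at this depth in the sorted cells. The limits cover counting error only.

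Scavenger receptors are the family around Olr1. None of 12 listed receptors of modified lipoprotein passed limma in skin (3 at an unadjusted p under 0.05, 0 by edgeR and 1 by DESeq2), where 11 of the 12 had a fold change above 0 and the median log2 fold change was 0.48, against 0.00 for all genes tested. In HFSC 3 of 7 passed as higher and 0 as lower, with a median of 0.09 against -0.03 for all genes. This leaves out Scarf1, whose controls were all under 10 normalised reads. Without such genes 18.3% of all genes passed. The 3 include Cd36, which also reached the filter only through its eKO libraries. Cd36, a fatty acid and lipoprotein receptor, was at 3.00 to 15.8 normalised reads in control and 141 to 155 in eKO HFSC, given without a test. Scarf1, which binds acetylated lipoprotein, was at 1.00 to 8.42 and 17.5 to 60.7, given without a test. Scarb1, the high-density lipoprotein receptor, rose from 58.3 ± 5.29 to 131 ± 29.3 (SD, n = 3 each; log2 fold change 1.14, SE 0.28, limma adjusted p = 0.0131). The Scarb1 call was lost without control replicate 1 (adjusted p = 0.0520). CD36 and Scarf1 are also known in endothelial cells, whose marker list moved with the same groups: the sum of the endothelial list was 14.7 to 44.0 in control and 1046 to 1270 in eKO HFSC, and 7 of its 8 members past the filter had reached it only through the eKO libraries, so the list has no count of calls here. The part of these cells in the scavenger receptor values was not tested.

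Paqr7 was the most abundant member in skin. Control libraries held 2224, 1578, 1939, 1436 and 2516 normalised reads and eKO libraries 6552, 5759, 6039, 5084 and 4057. The means were 1939 ± 446 and 5498 ± 964 (SD, n = 5 each; log2 fold change 1.52). In HFSC the controls held 488, 377 and 497 and the eKO libraries 575, 585 and 631. The eKO libraries again lay above all controls, but the test missed the threshold (log2 fold change 0.41, 95% interval 0.09 to 0.72, limma adjusted p = 0.0709).

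Of the other progestin and adiponectin receptors of the PAQR family and the progesterone membrane components, 0 of 11 tested passed in skin (limma; 4 at an unadjusted p under 0.05, 0 by edgeR and 2 by DESeq2; median log2 fold change 0.14 against 0.00). In HFSC 2 of 10 passed, a share near the 19.4% of all genes, and in opposite directions. Paqr4, a Golgi member, rose from 348 ± 68.3 to 505 ± 48.9 (SD, n = 3 each; limma adjusted p = 0.0385), and Paqr6, another membrane progesterone receptor, fell from 630.1 ± 48.1 to 453 ± 46.2 (adjusted p = 0.0281). The list median was 0.18 against -0.03 for all genes. Both calls are fragile: each was lost without any 1 of 5 of the 6 libraries, all but control replicate 1 for Paqr4 (adjusted p up to 0.168) and all but eKO replicate 1 for Paqr6 (up to 0.126). Paqr4 also lost it with library size only (0.0640) and with no filter (0.0518).

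Mfge8 stood apart between genotypes in skin and overlapped in HFSC. Its control skin libraries held 962, 826, 754, 639 and 682 normalised reads and its eKO skin libraries 2283, 1580.4, 2012, 1517 and 2322. The lowest eKO library was 1.58 times the highest control, with means of 773 ± 128 and 1943 ± 380 (SD, n = 5 each; log2 fold change 1.32). HFSC of controls held 944, 938 and 849, and those of eKO mice 964, 865 and 856, within one common range. The log2 fold change there was -0.02 with a 95% interval of -0.27 to 0.22 (limma adjusted p = 0.905).

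Receptors and ligands of dying cells passed in both directions in HFSC and not at all by limma in skin. In skin 0 of 15 tested passed limma (3 at an unadjusted p under 0.05, 0 by edgeR and 1 by DESeq2), though 13 of the 15 had a fold change above 0 (median 0.28 against 0.00). In HFSC 3 of 10 passed, against 19.4% of all genes: Mertk fell from 913 ± 14.8 to 553 ± 2.11 (SD, n = 3 each; log2 fold change -0.72, SE 0.11, limma adjusted p = 7.36e-04), its ligand Gas6 fell from 1173 ± 84.5 to 739 ± 29.3 (-0.66, SE 0.11, adjusted p = 0.0012), and Tyro3, a sister receptor of Mertk, rose from 149 ± 5.90 to 239 ± 12.1 (0.67, SE 0.19, adjusted p = 0.0243). Mertk and Gas6 are a receptor and its ligand, and both fell in cells whose Mfge8 values overlapped between genotypes. The Tyro3 call was lost without any 1 control library or eKO replicate 2 (adjusted p up to 0.0803).

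Slc46a2 separated cleanly in skin. Control libraries held 641, 659, 691, 547 and 574 normalised reads and eKO libraries 1293, 1145, 1358, 1010.1 and 1233. The means were 622 ± 60.1 and 1208 ± 136 (SD, n = 5 each; log2 fold change 0.95). Sorted HFSC held little of it, 9.97, 18.9 and 17.0 in control and 4.55, 24.1 and 1.07 in eKO, and the groups overlapped. The HFSC estimate, -1.26 with a 95% interval of -3.25 to 0.73 (limma adjusted p = 0.375), rests on 45 reads in control and 29 in eKO and leaves both directions within its interval. It was -0.42 without eKO replicate 3, -2.22 without eKO replicate 2 and -0.64 by edgeR and by DESeq2.

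Peptidoglycan sensing gave the 1 partner gene that passed in skin by limma and by edgeR. Pglyrp2, a peptidoglycan amidase, rose from 18.2 ± 4.28 to 131 ± 69.0 normalised reads (SD, n = 5 each; log2 fold change 2.60, SE 0.41, limma adjusted p = 0.0376), with controls at 12.5 to 23.6 and eKO libraries at 39.3 to 214. The background share of this test in skin was 0.374%. Leaving out any 1 library but eKO replicate 4 ended that call (adjusted p up to 0.0989). The other 11 genes of the list did not pass limma or edgeR in skin; 4 of the 12 had an unadjusted p under 0.05 by limma, and DESeq2 called 2. In HFSC Pglyrp4, a bactericidal peptidoglycan recognition protein of surface epithelia, rose from 93.1 ± 14.4 to 325 ± 44.6 (SD, n = 3 each; limma adjusted p = 9.10e-05), and Nod2, the intracellular sensor of muramyl dipeptide, fell from 376 ± 17.1 to 198 ± 54.7 (adjusted p = 0.0062). They were 2 of 10 tested, a share near the 19.4% of all genes. The list medians were 0.38 in skin and 0.29 in HFSC.

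Ptprz1 was lower in eKO skin, and its HFSC groups overlapped. Control skin held 150.4, 153, 185, 161 and 139 normalised reads and eKO skin 63.2, 59.9, 55.2, 82.4 and 67.3. The lowest control was 1.68 times the highest eKO, with means of 158 ± 17.2 and 65.6 ± 10.4 (SD, n = 5 each; log2 fold change -1.26). Among the HFSC libraries, controls held 37.9, 78.9 and 32.0 and eKO 19.0, 97.6 and 74.6. These libraries scattered across the same range (log2 fold change 0.18, 95% interval -1.04 to 1.40, limma adjusted p = 0.861), and the sign of the estimate turned without 1 of 3 libraries.

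Of the ligands of Ptprz1, Ptn and Tnc rose in HFSC. Ptn, pleiotrophin itself, rose from 8233 ± 521 to 12457 ± 1070 normalised reads (SD, n = 3 each; log2 fold change 0.60, SE 0.08, limma adjusted p = 2.52e-04). Tnc, the matrix protein tenascin C, rose from 294 ± 23.1 to 905 ± 22.3 (1.62, SE 0.13, adjusted p = 3.89e-06). They were 2 of 9 partners, a share near that of all genes, that reached the filter other than through eKO libraries alone. None of the 9 passed as lower (median 0.15 against -0.03 for all genes). Cntn1, a contactin that binds the receptor, was at 0 to 2.10 in control and 20.8 to 56.1 in eKO; it reached the filter only through the eKO libraries and is given as values, without a test. In skin 0 of 11 passed limma (2 at an unadjusted p under 0.05, 0 by edgeR and 0 by DESeq2), with a median of 0.10.

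B4galnt2 had the largest log2 difference of the 4 members that were lower in eKO skin. Control skin held 127, 48.1, 68.9, 54.1 and 136 normalised reads and eKO skin 16.9, 24.5, 18.0, 6.55 and 16.1. Control replicates 1 and 5 stood apart from the other 3 controls, and all controls lay above the eKO libraries, with means of 86.8 ± 41.5 and 16.4 ± 6.44 (SD, n = 5 each; log2 fold change -2.31). In HFSC it was below the filter and was not tested: the controls held 6.98, 4.21 and 16.0 and the eKO libraries 1.52, 0 and 0. That is 27 reads in control and 2 in eKO HFSC, a rate ratio of 15.2 with an exact 95% interval of 3.82 to 132 for counting error only. Both eKO reads were in eKO replicate 1, without which the ratio has no finite value, and 16 of the control reads were in control replicate 3, without which it was 9.37. Of its family in HFSC, 3 of 12 tested passed as higher and 1 as lower (median 0.54 against -0.03). Of all genes 19.4% passed in either direction. B4galnt1, the GM2 and GD2 ganglioside synthase, rose from 85.2 ± 6.52 to 179 ± 24.8 (SD, n = 3 each; limma adjusted p = 0.0072). Fut1, a fucosyltransferase that makes the H antigen, rose from 115 ± 1.61 to 279 ± 40.8 (adjusted p = 8.26e-04), and B4galnt3, which makes the LacdiNAc unit, fell from 497 ± 47.5 to 242 ± 57.9 (adjusted p = 0.0020). In skin 0 of 12 passed limma, with 1 at an unadjusted p under 0.05, none by edgeR or DESeq2 and a median of 0.03.

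**Figure D2:**
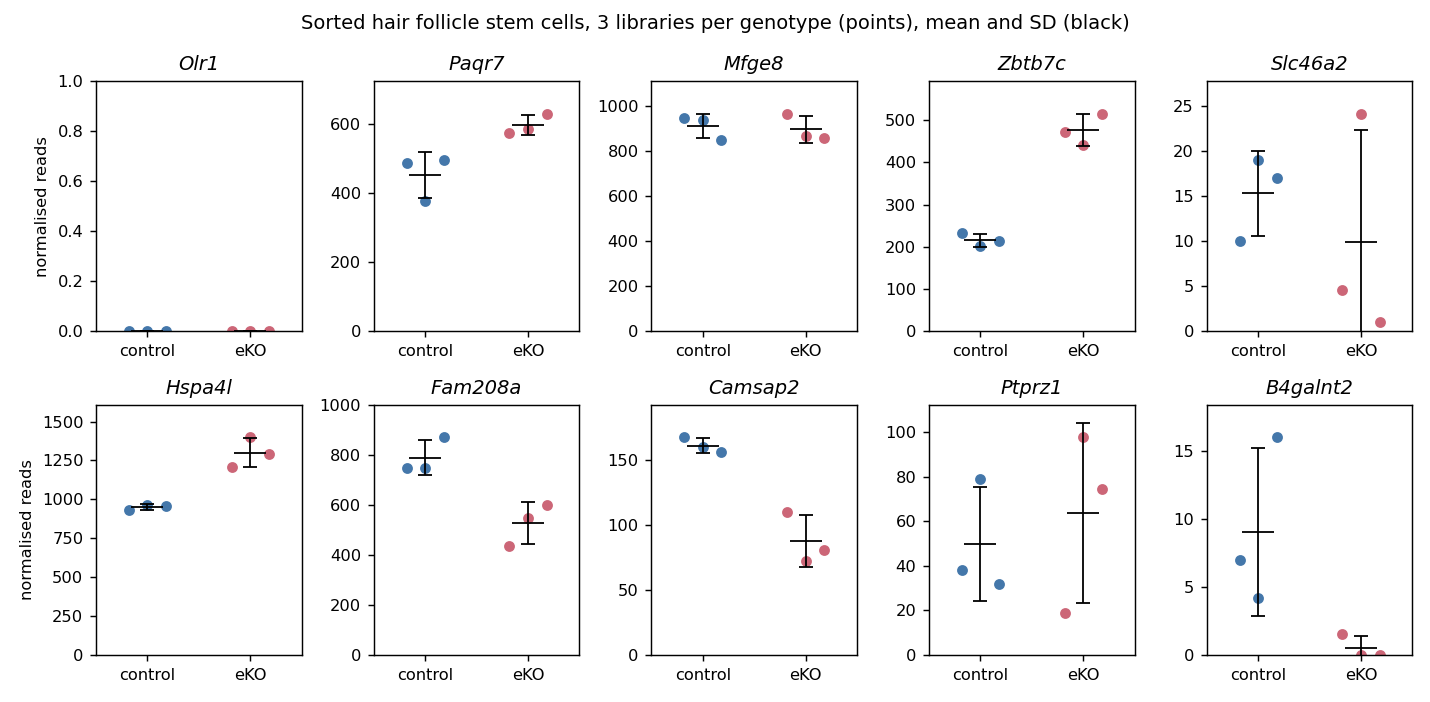
Normalised reads of the same 10 genes in each sorted stem cell library (y axis, own linear scale from 0), with mean and SD of 3 libraries per genotype. The groups stand apart for Paqr7, Zbtb7c, Hspa4l, Fam208a and Camsap2, lie on each other for Mfge8, scatter for Slc46a2 and Ptprz1, and are at or near 0 for Olr1 and B4galnt2.

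Zbtb7c was higher in eKO in both tissues. Control skin held 604, 433, 485, 428 and 447 normalised reads and eKO skin 1120.4, 782, 1155, 1124 and 1053. The means were 479 ± 73.0 and 1047 ± 153 (SD, n = 5 each; log2 fold change 1.12). In HFSC the controls held 232, 202 and 213 and the eKO libraries 472, 441 and 516. Every eKO library was above every control, with means of 216 ± 15.4 and 476 ± 37.6 (n = 3 each; log2 fold change 1.14, SE 0.16, 95% interval 0.80 to 1.48, limma adjusted p = 2.88e-04), and the call held without any 1 HFSC library.

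Other POZ and zinc finger regulators passed in both directions in HFSC, more of them lower than higher. Of 13 tested 7 passed, against 19.4% of all genes: 5 fell, and Zbtb7a and Zbtb38 rose, the direction of Zbtb7c. The median was -0.29 against -0.03 for all genes. Zbtb16, or PLZF, a regulator of stem cells in other tissues, fell from 1894 ± 129 to 911 ± 140.5 (SD, n = 3 each; log2 fold change -1.06, SE 0.12, limma adjusted p = 7.19e-05). Bcl6, a repressor known from germinal centre B cells, fell from 197 ± 63.5 to 96.2 ± 38.4 (-1.05, SE 0.32, adjusted p = 0.0340), and Zbtb42 from 218 ± 18.2 to 130.02 ± 23.2 (-0.76, SE 0.22, adjusted p = 0.0272). The Bcl6 and Zbtb42 calls were each lost without any 1 of 4 libraries: controls 2 and 3 and eKO 1 and 2 for Bcl6 (adjusted p up to 0.165; 0.0521 with no filter), and all 3 controls and eKO 1 for Zbtb42 (up to 0.112). In skin 0 of 14 passed limma (2 at an unadjusted p under 0.05, 0 by edgeR and 1 by DESeq2; median -0.04).

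Fam208a was the member with the smallest fold change in skin and one of the tightest within groups. Control skin held 548, 546, 579, 513 and 585 normalised reads and eKO skin 381, 337, 409.7, 369 and 316. The means were 554 ± 28.9 and 362 ± 36.9 (SD, n = 5 each; log2 fold change -0.62). The HFSC controls held 749, 749 and 869.8 and the eKO libraries 437, 548 and 601. All eKO libraries lay below the controls (log2 fold change -0.59, SE 0.14, 95% interval -0.90 to -0.27, limma adjusted p = 0.0134), and without control replicate 3 the adjusted p was 0.0740. Fam208a shares exon sequence with Ccdc66 on the opposite strand, and the strand setting of the counting is not given in the sources used here. Ccdc66 itself, at 149 ± 15.3 and 129 ± 18.6 in skin (limma adjusted p = 0.535) and 266 ± 45.7 and 200.7 ± 41.4 in HFSC (0.201), did not pass in either tissue.

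None of the other HUSH subunits and their partners in silencing passed as lower in HFSC. There 1 of 10 tested passed, against 19.4% of all genes. It was Pphln1, which encodes the subunit periphilin, and it rose from 1409 ± 49.2 to 1799 ± 173 (SD, n = 3 each; log2 fold change 0.35, SE 0.10, limma adjusted p = 0.0312). This call was lost without any 1 library but eKO replicate 1 (adjusted p up to 0.115) and when only library size was used for scaling (0.0760). The list medians were -0.04 in HFSC and -0.19 in skin, where 0 of 10 passed limma (4 at an unadjusted p under 0.05, 0 by edgeR and 2 by DESeq2).

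Camsap2 was lower in eKO in both tissues. Control skin held 464, 608, 541, 490.1 and 397 normalised reads and eKO skin 271, 261, 288, 246 and 247. The eKO libraries were close together below the spread controls, with means of 499.95 ± 79.5 and 263 ± 17.4 (SD, n = 5 each; log2 fold change -0.91). In HFSC the controls held 168, 159.9 and 156 and the eKO libraries 109.9, 72.3 and 81.0, again with no overlap (log2 fold change -0.89, SE 0.25, 95% interval -1.43 to -0.35, limma adjusted p = 0.0242). Leaving out any 1 library but eKO replicate 1 ended the call, with adjusted p between 0.0563 and 0.0971. The antisense gene Gm26781, which shares exon sequence with Camsap2, reached at most 5.78 normalised reads in skin and 7.46 in HFSC.

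Genes of microtubule minus ends and of severing leaned to lower values in HFSC. Of 15 tested 13 had a fold change below 0 (median -0.33 against -0.03 for all genes). The test was passed by 3 as lower and 1 as higher, and by 19.4% of all genes in either direction. Camsap3, the epithelial relative of Camsap2, fell from 634 ± 157 to 319.7 ± 86.0 (SD, n = 3 each; log2 fold change -0.99, SE 0.23, limma adjusted p = 0.0089). Katnal1, a katanin-like severing enzyme, fell from 273 ± 2.32 to 164 ± 20.6 (-0.74, SE 0.19, adjusted p = 0.0147), and Cdk5rap2, which anchors the nucleating complex at centrosomes, from 192 ± 37.9 to 111 ± 7.83 (-0.77, SE 0.23, adjusted p = 0.0315). Single libraries ended these calls: Camsap3 was lost without control 3 (adjusted p = 0.0532), Katnal1 without any 1 control (up to 0.0645), and Cdk5rap2 without any 1 library but eKO replicate 1 (up to 0.153). In skin 12 of 16 had a fold change below 0, the median was -0.18 and 0 passed limma (3 at an unadjusted p under 0.05, 0 by edgeR and 0 by DESeq2).

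Hspa4l was also higher in eKO in both tissues. Control skin held 564, 535, 657, 514 and 476 normalised reads and eKO skin 1022, 797, 1138, 950.2 and 943. The means were 549 ± 68.1 and 970.2 ± 124 (SD, n = 5 each; log2 fold change 0.82). In HFSC the controls held 931, 966 and 956 and the eKO libraries 1210.0, 1399 and 1294. The controls were close to each other and all below the eKO libraries (log2 fold change 0.45, SE 0.11, 95% interval 0.22 to 0.68, limma adjusted p = 0.0101), and the adjusted p was 0.0511 without control replicate 1.

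Of its chaperone partners 3 of 16 tested passed in HFSC, a share near the 19.4% of all genes (2 higher and 1 lower, median 0.26 against -0.03). Hspa5, or BiP, the HSP70 of the endoplasmic reticulum, rose from 3250.4 ± 211 to 5692 ± 200.7 (SD, n = 3 each; log2 fold change 0.81, SE 0.08, limma adjusted p = 2.14e-05), and Dnajb1, a J protein that feeds substrates to HSP70, from 3524 ± 169.8 to 4813 ± 417 (0.45, SE 0.09, adjusted p = 0.0031). Hsf1, the transcription factor of the heat shock response, fell from 987 ± 76.5 to 696 ± 56.7 (-0.50, SE 0.12, adjusted p = 0.0110), a call lost without control replicate 2 (0.0733). In skin 0 of 16 passed limma (1 at an unadjusted p under 0.05, 0 by edgeR and 0 by DESeq2; median 0.06).

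**Figure D3:**
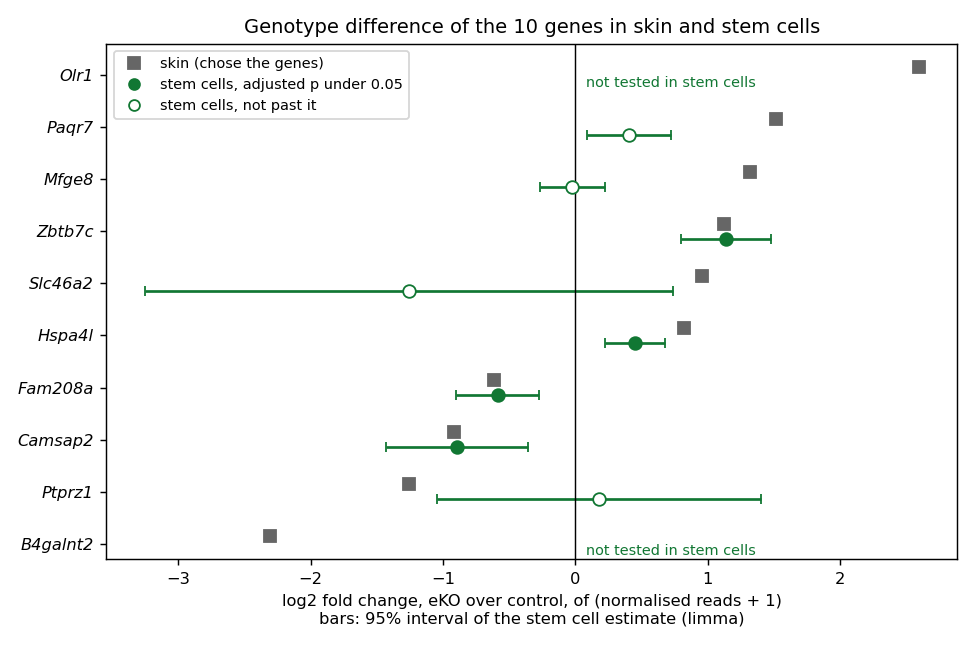
Log2 fold change of the 10 genes, eKO over control, on the scale of log2(normalised reads + 1). Grey squares are skin, which chose the genes and has no test, and green circles are HFSC with 95% intervals, filled where the adjusted p is under 0.05; the filled circles of Zbtb7c, Camsap2 and Fam208a lie close to their squares, that of Hspa4l at 0.45 lies nearer 0 than its square at 0.82, and Mfge8 lies at 0 with a square at 1.32.

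Levels per length show which members the stem cells express at all. In RPKM, reads scaled by GENCODE M21 exon length and library depth and computed here, control skin had Paqr7 at 39.3, Slc46a2 at 18.9 and Mfge8 at 14.2, then Zbtb7c at 8.72, Camsap2 at 4.68, B4galnt2 at 4.36, Hspa4l at 4.01 and Fam208a at 3.51, and Ptprz1 at 0.955 and Olr1 at 0.282. Control HFSC had Mfge8 first at 28.8, then Paqr7 at 15.8, Hspa4l at 12.0, Fam208a at 8.61, Zbtb7c at 6.78 and Camsap2 at 2.60, and Slc46a2, B4galnt2 and Ptprz1 at 0.802, 0.782 and 0.517. The 4 genes that passed in HFSC stood at the 24.3rd to 65.8th percentile of the genes tested there, and Slc46a2, Ptprz1 and B4galnt2 at or below the 8.43rd. The tissues were prepared with different kits and normalised apart, so the order within a tissue is firmer than the step between them. In bulk RNA, fewer cells of a type and less RNA per cell cannot be told apart.

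Over all 10 partner lists, 33 of 114 genes tested passed in HFSC (28.9%, 19 higher and 14 lower), against 19.4% of all genes. Without genes whose libraries of 1 genotype were all under 10 normalised reads, 31 of 111 passed (27.9%, against 18.3% of all genes). In skin 1 of 129 passed by limma (27 at an unadjusted p under 0.05, 1 by edgeR and 9 by DESeq2). The list medians were close to those of all genes: 0.04 against -0.03 in HFSC and 0.05 against 0.00 in skin.

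Genes next to the members on the chromosome were looked at in both tissues. Of the 20 nearest genes tested in skin, 1 on each side of each member, none passed the limma test (3 at an unadjusted p under 0.05, 0 by edgeR or DESeq2). None had groups that did not overlap, and log2 fold changes ran from -0.28 to 1.98. Of all genes tested in skin only 0.374% passed and 4.18% had groups that did not overlap, so these counts do not set the neighbours apart. The highest was Clec7a, the β-glucan receptor Dectin-1, which lies beside Olr1 (47.6 ± 38.7 and 127 ± 43.9 normalised reads, SD, n = 5 each; limma adjusted p = 0.264). In HFSC 1 of 16 tested passed, against 19.4% of all genes: Arhgef3, the neighbour of Fam208a, fell from 2186 ± 92.5 to 1669 ± 197 (SD, n = 3 each; log2 fold change -0.39, SE 0.10, limma adjusted p = 0.0184). That call was lost without control replicate 1 or 2 (up to 0.0890).

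Genes with the most similar pattern over the 10 skin libraries were named by Pearson's r of log2(normalised reads + 1). All these r values include the difference between genotypes that chose the members. Bfsp2, a lens filament protein, was closest to B4galnt2 (r = 0.989), Vamp8, a vesicle fusion protein, to Slc46a2 (0.984), and Pcdh1, a protocadherin, and Crabp2, which binds retinoic acid, to Hspa4l (both 0.979). Mga and Zfp871 were closest to Camsap2 (0.973 and 0.967), Shf and Sgpl1, the sphingosine phosphate lyase, to Zbtb7c (0.973 and 0.963), Robo2 and Cst6, a cystatin of the epidermis, to Mfge8 (0.972 and 0.965), and Cst6 was also second for Slc46a2 (0.9751). Mtor and Tti1 were closest to Ptprz1 (0.964 and 0.959), Endod1 to Olr1 (0.959), Pxmp4, a peroxisomal protein, and Far2 to Paqr7 (0.958 and 0.953), Npy1r was second for B4galnt2 (0.961), and Zfp558 and Cep350 were closest to Fam208a (0.945 each). Far2, a fatty alcohol enzyme of the sebaceous gland, is on the sebaceous marker list.

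**Figure D4:**
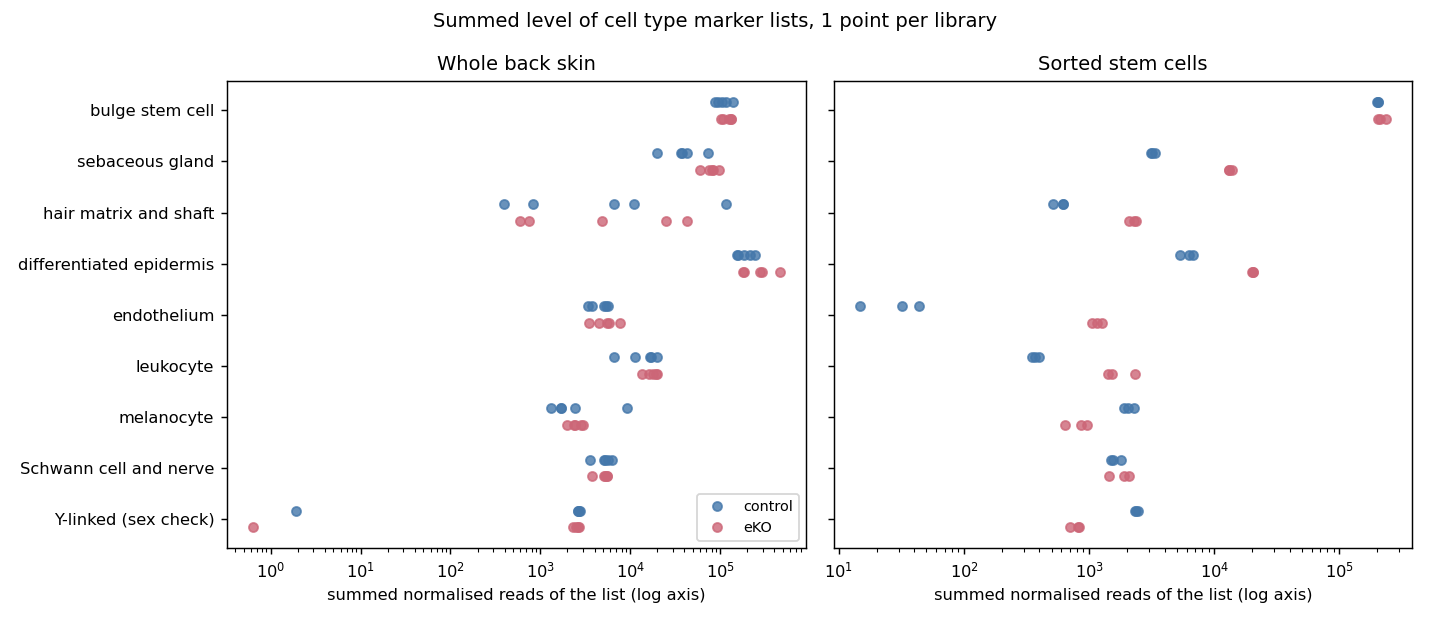
Summed normalised reads of 9 marker lists, including the Y-linked genes, in each library (log axis), by genotype, in skin and in sorted stem cells. In skin all 9 lists overlap between genotypes and 2 libraries lack Y-linked reads. In HFSC the eKO libraries hold more sebaceous, hair matrix, differentiated epidermal, endothelial and leukocyte marker RNA and less melanocyte and Y-linked RNA. The bulge sums overlap there.

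Markers of other cells moved with genotype, mainly in HFSC. The bulge list was high in all 6 HFSC libraries, at 199557 to 204419 summed normalised reads in control and 203370 to 235858 in eKO. Though these sums overlap, 4 of its 10 genes passed limma, against 19.4% of all genes. Itga6, Krt5 and Krt14 were higher and Lgr5 was lower in eKO. Beside the endothelial list, the sebaceous list summed to 3136 to 3329 in control and 13018 to 13844 in eKO. Of it 7 of 9 passed as higher, beside Cidea, which reached the filter only through eKO. The hair matrix list summed to 517 to 617 and 2078 to 2367 (4 of 5 passed as higher, beside Krt35, likewise). The differentiated epidermis list summed to 5337 to 6783 and 20051 to 20487 (6 of 8 passed as higher, 1 as lower). The leukocyte list summed to 347 to 394 and 1408 to 2315 (3 of 6 passed as higher, 1 as lower). Cldn5 was at 0 in all 6 HFSC libraries, and Vwf and Emcn at 0 in the controls. The melanocyte list was at 1888 to 2284 in control and 641 to 956 in eKO. Of its 5 genes tested only 1, Mitf, passed, as lower, and the median log2 fold change was -0.10 against -0.03 for all genes. All 4 Y-linked genes were lower in eKO (summed 2340 to 2476 and 704 to 831). Single skin libraries had Y-linked sums of 2297 to 2762 or near 0. Y-linked RNA thus went with genotype in HFSC, so sex make-up and genotype cannot be told apart in the HFSC tests. In skin the sebaceous list was at 19754 to 73544 in control and 59287 to 97316 in eKO. By limma 3 of 11 passed as higher (Krt79, Cidea and Far2), against 0.374% of all genes tested. All 11 had a fold change above 0, with a median log2 fold change of 1.02 against 0.00. Of the 11, 9 had an unadjusted p under 0.05 by limma, while edgeR called 3 and DESeq2 called 5. Hair matrix sums reached from 395 to 116129 in control and from 594 to 43001 in eKO skin, with none of the list at an unadjusted p under 0.05 by limma or called by edgeR or DESeq2. The part of these cells in the values of the 10 genes was not tested.

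The highest and lowest libraries were shared by several members in skin. Control replicate 4, which had the highest hair matrix sum and the lowest sebaceous sum of the controls, was the lowest control for 5 members (Slc46a2, Mfge8, Paqr7, Zbtb7c and Fam208a), and control replicate 3 was the highest for 4 (Slc46a2, Ptprz1, Olr1 and Hspa4l). In eKO skin replicate 3 was the highest for 5 members and replicate 4 the lowest for 5. Y-linked reads were near 0 in control replicate 5 and eKO replicate 3, at sums of 1.90 and 0.64. Without these 2 libraries the skin log2 fold change of Hspa4l was 0.71 against 0.82, and that of Camsap2 -1.03 against -0.91. With the hair score as a covariate that of Mfge8 was 1.29 against 1.32. As the skin values chose the genes, these values are a description and do not test how firm the differences are.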

How the data were processed

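The authors deposited, for each tissue, a table of read counts per gene divided by 1 size factor per library, a signal in normalised reads. Per the submitters' processing notes the skin reads were counted with featureCounts and normalised with DESeq2 on GRCm39; for HFSC the notes name GRCm39 only. The aligner, annotation and strand setting are not given in the sources used here. Whole reads were recovered from the steps of the deposited values within a tolerance of 0.01. Gene names matched 94.1% of 55357 skin rows and 91.4% of 56953 HFSC rows, and Krt85 found no name.

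Each tissue was fitted alone with limma 3.58.1 (R 4.3.3) on log2(value + 1), keeping genes with at least 10 normalised reads in at least 5 skin or 3 HFSC libraries, with Benjamini-Hochberg adjustment over all genes tested and a threshold of 0.05. On simulated data the fit recovered 52% of 100 genes changed 2-fold and 96% of 100 changed 4-fold in skin, and 77% and 97% in HFSC. The changed genes were drawn from those with a mean of at least 50 normalised reads, so genes nearer the filter are not covered. Alternatives were other pseudocounts and filters, library size only, edgeR 4.0.16, DESeq2 1.42.0, a replicate block, a hair score covariate and left-out libraries. Figures were drawn with matplotlib 3.10.9.

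The 10 genes and all lists were chosen with earlier results of these data known. Named are all members, up to 3 genes past the threshold per partner list and tissue, the nearest gene tested in skin on each side of a member, the 2 genes most correlated with each over the skin libraries, and markers that move with a group. No 2 libraries agreed within sampling noise. The labels do not say that the replicates came from separate animals, so p-values may measure technical spread. Skin replicates are numbered in accession order. Intervals and limits for counts of 0 (3 reads) cover counting error only.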

Additional observations from a re-analysis of the deposited data

Results flagged for a closer look

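Among the 20 groups of 5 skin libraries of the 10 genes, 1 had a library far from the others: eKO replicate 2 held 782.36 normalised reads of Zbtb7c, the lowest of its group, where the other 4 held 1053 to 1155. Its gap to the nearest of the others was 0.726 of the group's range, above Dixon's 95% critical value of 0.71. Chance flags about 1 in 20 such groups. The library was still above the highest control at 604.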

How the results depend on the processing

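In HFSC 4 members passed under each alternative that kept all libraries, and 2 to 4 when 1 library was left out. The calls lost were those of Camsap2, Fam208a and Hspa4l, and Zbtb7c passed in all 14 alternatives. Ptprz1 turned to -0.07 without control 3, -0.27 without eKO 2 and -0.08 without eKO 3, and Mfge8 to 0.0024 without control 1 and 0.0061 without eKO 3; without 1 library they ranged from -0.27 to 0.88 and from -0.079 to 0.0061, and none of these passed. Partner genes past the threshold in HFSC were 33, and 20 to 31 without 1 library (20 without control 2, 21 without control 3). Of 27 other genes named there 14 kept the call in all alternatives and none turned. Among the 14 are Cd36 and Cntn1, which passed the filter through the eKO libraries and are given above without a test. All genes past it in HFSC were 2673, and 1519 to 2620 without 1 library (1519, 1541 and 1769 without control 1, 2 and 3). With library size only 1271 were higher and 1537 lower, against 1468 and 1205.

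In skin 62 genes passed, 54 with edgeR, 656 with DESeq2, 152 with the hair score as a covariate, 32 with library size only, 37 with no filter, and 10 to 57 without 1 library, lowest without eKO 1. Without the libraries that hold no Y-linked reads 0 passed in limma, with 1790 at an unadjusted p under 0.05; the cause was not tested. Partner genes in skin were 1, and 9 with DESeq2, 0 with a filter of 50, 0 without the Y-less libraries (15 at an unadjusted p under 0.05) and 0 to 1 without 1 library.

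HFSC replicate numbers do not pair the libraries (correlations of same-numbered libraries -0.060, -0.018 and -0.026), and with a replicate block 2696 genes, 33 partner genes and 4 members passed. Depth limits Slc46a2, Olr1 and B4galnt2 in HFSC.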
